A study of Mus musculus with 2 samples.

Results

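miR-33 and miR-378a are microRNAs (miRNAs) whose hairpins lie inside genes of sterol and mitochondrial metabolism, and their levels were examined in resting mouse macrophages. They were chosen by name, and both arms of each hairpin gave 4 of the 1915 mature miRNA names counted: mmu-miR-33-5p, mmu-miR-33-3p, mmu-miR-378a-3p and mmu-miR-378a-5p. Small RNA was sequenced from unstimulated bone marrow-derived macrophages (BMDMs) of wild type C57/BL6 mice 8 weeks of age, in 2 libraries that the labels call biological replicates of a single condition. The counts of all names summed to 7322969 in replicate 1 and 8094314 in replicate 2. BMDMs are grown from bone marrow precursors in medium conditioned by L cells, a fibroblast line, so they stand for cultured macrophages and not for those of a tissue. The labels do not say whether each library came from a separate animal or culture, so the spread between them may be partly technical. With a single condition there was no group to compare, and the values describe level, arm use and the difference between the libraries.

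A miRNA hairpin is cut into a short duplex, from which 1 arm, the guide, is usually kept in an Argonaute protein while the other, the passenger, is degraded. miR-33 sits in Srebf2, which encodes SREBP-2, the transcription factor that turns on cholesterol synthesis and uptake. Its 5p arm represses Abca1, the transporter that exports cholesterol from macrophages, and its 3p arm has been reported to act on sterol and fatty acid genes too. miR-378a sits in Ppargc1b, which encodes PGC-1β, a coactivator of mitochondrial biogenesis and oxidative metabolism, and its arms have been studied in muscle, fat and liver as regulators of fuel use.

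The sequences of miR-33 are shown first because they bear on whether its reads could belong to another name. All sequences are from RefSeq on GRCm38.p6, 5′ to 3′. The Mir33 hairpin (ENSMUSG00000065465.1) covers 69 bases at chr15:82198122-82198190 on the plus strand, within intron 16 of the Srebf2 transcript Srebf2-201, on the strand of that gene and overlapping 0 of its annotated exons. In the hairpin, capitals mark the 2 mature arms.
Mir33 hairpin: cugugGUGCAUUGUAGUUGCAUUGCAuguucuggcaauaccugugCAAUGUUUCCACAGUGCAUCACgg
In each mature arm, capitals mark the seed, bases 2 to 8, which pairs with target mRNAs.
mmu-miR-33-5p: gUGCAUUGuaguugcauugca
mmu-miR-33-3p: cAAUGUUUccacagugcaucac
Of the 1915 names, 1623 matched a mature sequence in RefSeq. None of the other matched names had the seed of either arm of miR-33. The longest run of bases that mmu-miR-33-5p shared with any other matched name was 8, and for mmu-miR-33-3p it was 11, with miR-148b-3p.

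The table also lists miR-378b, miR-378c and miR-378d, and their mature sequences are shown because miRNAs with the same number have closely similar sequences and could have received each other's reads. Capitals mark the seed again.
mmu-miR-378b: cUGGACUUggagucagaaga
mmu-miR-378c: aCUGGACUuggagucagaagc
mmu-miR-378d: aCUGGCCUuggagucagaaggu
miR-378b and miR-378c shared an unbroken run of 19 bases and matched at 19 of the 20 bases aligned, with the ends offset by 1 base, which gives them different seeds. miR-378d had 2 mismatches with each of the others. These comparisons are among miR-378b, miR-378c and miR-378d, and their sequence similarity to miR-378a-3p was not analysed here. Mir378b lies at chr11:88352773-88352864 on the plus strand and Mir378c at chr14:46954830-46954928 on the minus strand, each in an intron of a protein-coding gene on the opposite strand, Msi2 and Samd4. Mir378d lies at chr10:126710282-126710391 on the minus strand, within no other annotated gene. In the GENCODE annotation of GRCm38 the Mir378a hairpin (ENSMUSG00000105200.1) lies in intron 1 of the Ppargc1b transcript Ppargc1b-202, on the strand of the host gene. Another miRNA gene, Gm25301, is annotated across it on the opposite strand, and whether the counting kept strand is not given in the sources used here.

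miR-378a-3p was an abundant miRNA of resting BMDMs, and the other 3 arms were rare. mmu-miR-378a-3p held 93898 counts in replicate 1 and 112837 in replicate 2. This was 12822 reads per 1000000 miRNA counts (RpM; 95% Wilson interval 12741 to 12904) and 13940.3 RpM (13859.7 to 14021). Its mean share of all miRNA counts was 1.34% ± 0.0790 (SD, n = 2). It ranked 14 in replicate 1 and 15 in replicate 2, and its level was 21.8-fold and 18.4-fold below that of miR-21a-5p, the most abundant miRNA. The intervals express counting error alone, since reads amplified by PCR and lacking molecular identifiers do not each stand for a separate molecule.

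mmu-miR-378a-5p, the other arm of the same hairpin, held 477 and 409 counts, or 65.1 RpM (59.5 to 71.3) and 50.5 RpM (45.9 to 55.7). Its mean level was 57.8 RpM ± 10.3 (SD, n = 2) and it ranked 180 by mean level.

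Both arms of miR-33 were rarer still. mmu-miR-33-5p, the arm known for repressing Abca1, held 232 counts in replicate 1 and 151 in replicate 2. These counts gave 31.7 RpM (27.9 to 36.0) and 18.7 RpM (15.9 to 21.9), with a mean of 25.2 RpM ± 9.21 (SD, n = 2) and a rank of 242. mmu-miR-33-3p held 134 and 63 counts, or 18.3 RpM (15.5 to 21.7) and 7.78 RpM (6.08 to 9.96), with a mean of 13.0 RpM ± 7.44 (SD, n = 2) and a rank of 290. All these values were above the level that a count of 0 allows, 0.410 RpM in replicate 1 and 0.371 RpM in replicate 2. In bulk RNA a miRNA present in fewer cells cannot be told apart from one with less RNA in each cell.

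**Figure D1:**
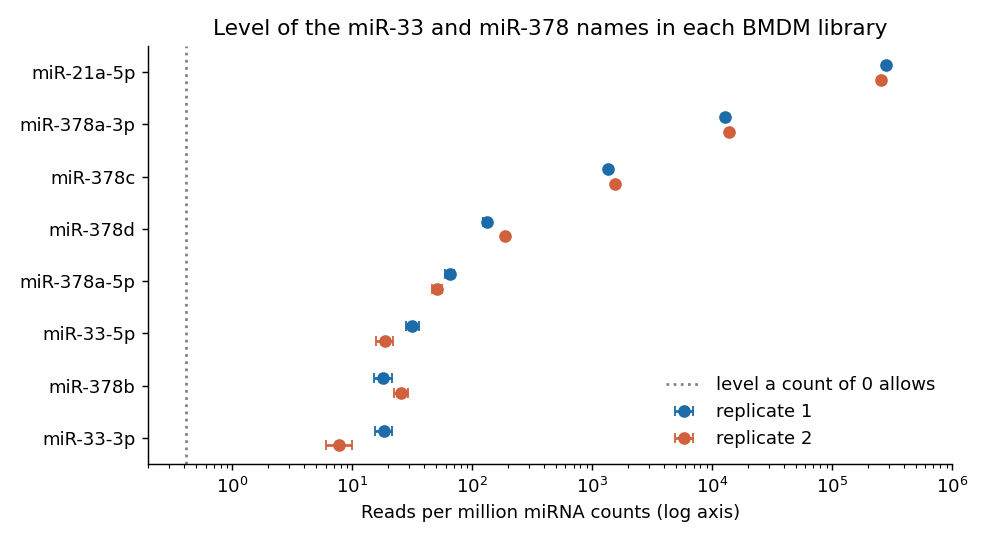
Reads per 1000000 miRNA counts (log axis) of the miR-33 and miR-378 names and of miR-21a-5p in replicate 1 (blue) and replicate 2 (orange) of unstimulated BMDMs, with 95% Wilson intervals as bars, hidden by the points where narrow, and the level a count of 0 allows in replicate 1 as a dotted line. miR-378a-3p lies at 12822 and 13940.3 RpM, while both arms of miR-33 lie between 7.78 and 31.7 RpM.

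The order of the 4 arms, miR-378a-3p, miR-378a-5p, miR-33-5p and miR-33-3p, was the same in both libraries. The count of miR-378a-3p was 405-fold that of miR-33-5p in replicate 1 and 747-fold that in replicate 2. Summed over both arms, miR-378a exceeded miR-33 258-fold and 529-fold. miR-378a-5p, the rare arm of its hairpin, still exceeded miR-33-5p 2.06-fold and 2.71-fold. These are ratios of counts, and ligation and PCR in small RNA libraries favour some sequences, so they are not ratios of molecules.

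Among all names, the miRNAs next to miR-378a-3p in level were miR-26a-5p directly above it, with 14492 RpM ± 1213 (SD, n = 2), and miR-99b-5p directly below, with 11289 RpM ± 4156 (SD, n = 2). miR-26a-5p was the higher in both libraries, but its gap to miR-378a-3p was smaller than its SD. miR-99b-5p fell below miR-378a-3p in replicate 1, with 8350.3 RpM, and above it in replicate 2, with 14228 RpM, so their order was not resolved. The order of miR-33-5p with its neighbours miR-191-3p (25.5 RpM ± 4.37, SD, n = 2) and miR-18a-3p (24.1 RpM ± 9.96, SD, n = 2) was not resolved either, nor was that of miR-33-3p with miR-200c-3p (13.2 RpM ± 3.41, SD, n = 2) and miR-25-5p (12.6 RpM ± 4.38, SD, n = 2). miR-378a-5p lay between miR-92a-1-5p (58.2 RpM ± 21.4, SD, n = 2) and miR-222-5p (57.4 RpM ± 8.38, SD, n = 2), within their spread.

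The miRNAs most like each arm were sought by the distance between their log2 RpM over both libraries, among the 448 names with at least 10 counts in each. For miR-378a-3p these were miR-26a-5p (distance 0.16) and miR-30e-5p (0.17). For miR-378a-5p they were miR-222-5p (0.05) and miR-324-3p (0.13), and for miR-33-5p they were miR-24-1-5p (0.08) and miR-18a-3p (0.13). miR-33-3p had no neighbour as close, since its nearest names, miR-25-5p and miR-669c-5p, lay at distances of 0.36 and 0.37. A distance over 2 libraries describes level and replicate difference only.

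The counts of the other miR-378 names were compared with those of miR-378a-3p, as counts only, with no measure of how alike their sequences are to it. miR-378c held 9986 counts in replicate 1 and 12477 in replicate 2, or 10.6% and 11.1% of the count of miR-378a-3p. miR-378d held 966 and 1531 counts, or 1.03% and 1.36% of miR-378a-3p, and miR-378b held 133 and 207 counts, or 0.142% and 0.183%. miR-378a-3p thus accounted for 89.4% (95% Wilson interval 89.3 to 89.6) and 88.8% (88.6 to 89.0) of the counts of these 4 names. None of the miR-378 names, and neither arm of miR-33, had the same counts in both libraries as any other name. miR-378c alone was 20.9-fold and 30.5-fold above miR-378a-5p, while miR-378b lay below miR-33-5p in replicate 1 and above it in replicate 2.

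Relative to miR-378a-3p, miR-378c was nearly constant, with a log2 change from replicate 1 to replicate 2 of 0.06 (counting SE 0.02). The names miR-378d and miR-378b were higher in replicate 2 relative to miR-378a-3p, with log2 changes of 0.40 (counting SE 0.06) and 0.37 (counting SE 0.16). The methods do not say how many mismatches were allowed or how reads that fit several hairpins were counted, so the split of reads among the 4 names is uncertain, and an exchange of reads between them was not tested. If all reads of miR-378b, miR-378c and miR-378d were counted with miR-378a-3p, its share would be 1.50%, more than 1 SD above the 1.34% given. This sum, and the share of miR-378a-3p among the 4 names, take each read as counted under 1 name only.

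Arm use differed widely between the hairpins. For miR-378a the 3p arm made up 99.5% of the counts of both arms in replicate 1 (95% Wilson interval 99.4 to 99.5) and 99.6% in replicate 2 (99.6 to 99.7), with a mean of 99.6% ± 0.102 (SD, n = 2). The 3p arm exceeded the 5p arm 197-fold and 276-fold. For miR-33 the 5p arm made up 63.4% (58.3 to 68.2) in replicate 1 and 70.6% (64.1 to 76.3) in replicate 2, with a mean of 67.0% ± 5.07 (SD, n = 2), so that the 5p arm exceeded the 3p arm only 1.73-fold and 2.40-fold. Both libraries thus gave the same arm as the more abundant one for each hairpin.

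Arms were paired when their names had the same root, so let-7a-5p and let-7a-1-3p, for example, were left out. The values were set beside the 160 paired hairpins whose arms each had 10 or more counts over both libraries. The more abundant arm held a median of 91.3% of the counts (quartiles 74.2% and 98.5%), and it was the 5p arm in 87 hairpins and the 3p arm in 73. miR-378a was among the most one-sided of these hairpins, with 20 of the 160 more so and 139 less. miR-33 was among the more even ones, with 128 of the 160 more one-sided and 31 less. The minimum left out hairpins whose rarer arm had fewer than 10 counts, however abundant the other arm. Some of those left out were more one-sided than miR-378a, so the median and the ranks hold among the 160 only. The hairpin of miR-33 had far fewer counts than that of miR-378a, and its Wilson intervals are wide.

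**Figure D2:**
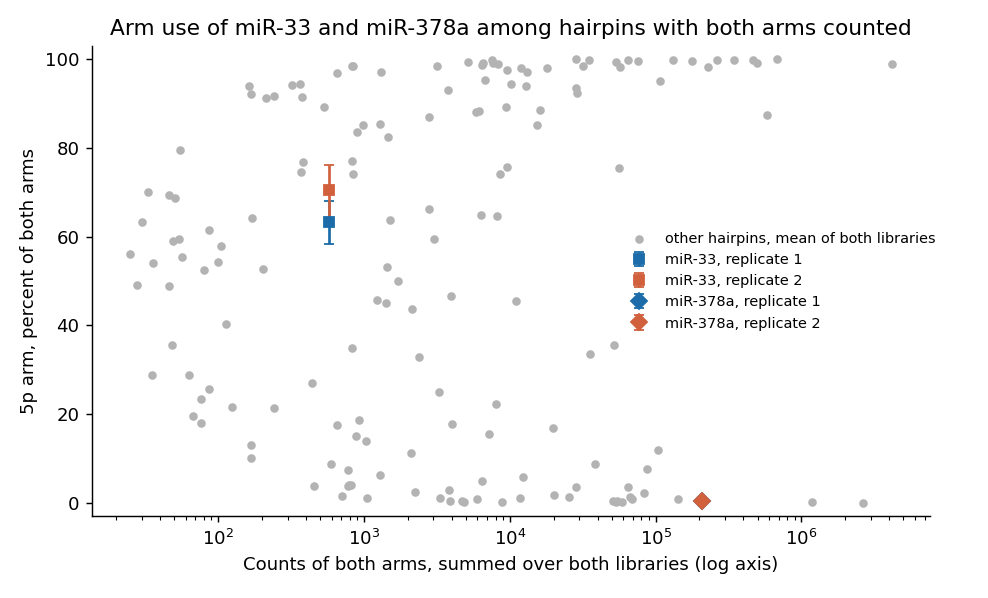
Share of the 5p arm in the counts of both arms (percent) against the counts of both arms summed over both libraries (log axis), for miR-33 (squares) and miR-378a (diamonds) in replicate 1 (blue) and replicate 2 (orange) with 95% Wilson intervals, and for the other hairpins as means (grey). miR-378a lies at the bottom edge, with its values of both libraries on top of each other, and miR-33 lies at 63.4% and 70.6%.

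Other miRNAs processed from protein-coding genes were used as a closer reference. Of 27 hairpins listed as intronic, 19 met that minimum, and GENCODE placed all 19 on the strand of a protein-coding gene and within it, 16 of them in an intron of every transcript of such a gene. The median of the more abundant arm in the 19 was 96.3%. Among the 19, the hairpins more one-sided than miR-378a were miR-186 in Zranb2 (99.9%), miR-107 in Pank1 (99.8%) and miR-25 in Mcm7. The last held 99.6% ± 0.136 (SD, n = 2), above miR-378a by less than that SD. miR-107, like miR-378a, keeps its 3p arm, and its host gene encodes an enzyme of coenzyme A synthesis. miR-33 was the most even of the 19 but for miR-151 in Ptk2, whose 3p arm held 66.4% ± 2.39 (SD, n = 2), a difference smaller than the SD of miR-33.

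Arm use was then compared between the libraries with Fisher's exact test on the counts of both arms, two-sided and adjusted over the 160 hairpins by the Benjamini-Hochberg method. A hairpin was called at an adjusted p under 0.05. The test compares these libraries, not conditions, and covers counting error only, and it called 55 of the 160 hairpins, 34.4%. miR-378a was called (Fisher's exact test, adjusted p = 4.22e-06), with a log2 ratio of 5p to 3p that was lower by 0.49 in replicate 2 (log2 shift -0.49, counting SE 0.10). miR-33 was not called (Fisher's exact test, adjusted p = 0.191), with a shift of 0.46 (counting SE 0.27) towards the 5p arm. The shifts were of like size and differed in precision, since the rarer arm of miR-33 held 134 and 63 counts and that of miR-378a 477 and 409. Both were close to the median absolute shift of all 160 hairpins, 0.39, and 61 and 67 of the hairpins had a larger shift than miR-378a and miR-33.

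The level of each arm was also compared between the libraries, with Fisher's exact test on its count and the rest of the library total, adjusted over the 588 names with at least 10 counts summed. The test called 260 names, 44.2%, of which 81 (13.8% of those tested) were higher and 179 (30.4%) lower in replicate 2. All 4 arms were called, 1 higher and 3 lower in replicate 2. At these depths small differences are called, and 15 of the 16 names with a mean of at least 10000 RpM were.

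miR-378a-3p was 1.09-fold higher in replicate 2, with a log2 ratio of 0.12 (counting SE 0.0064; Fisher's exact test, adjusted p = 7.80e-80). Its partner miR-378a-5p was 1.29-fold lower, with a log2 ratio of -0.37 (counting SE 0.10; adjusted p = 0.000509). That call was lost with DESeq2 size factors, where the log2 ratio was -0.22 (Fisher's exact test, adjusted p = 0.0559). These factors were 1 for both libraries, so that ratio is the one of the unscaled counts. Over all alternatives tried, the adjusted p of Fisher's exact test for miR-378a-5p ran from 8.33e-05 to 0.0559.

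Both arms of miR-33 were lower in replicate 2. miR-33-5p was 1.70-fold lower, with a log2 ratio of -0.76 (counting SE 0.15; Fisher's exact test, adjusted p = 1.38e-06), and miR-33-3p was 2.35-fold lower, with a log2 ratio of -1.23 (counting SE 0.22; adjusted p = 3.23e-08). miR-33-3p was the single arm of the 4 beyond 2-fold. Among the 448 names with at least 10 counts in each library, 34 were beyond 2-fold, 7.59%.

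The names miR-378b, miR-378c and miR-378d were all higher in replicate 2, like miR-378a-3p and unlike miR-378a-5p. Their log2 ratios were 0.49 for miR-378b (Fisher's exact test, adjusted p = 0.00540), 0.18 for miR-378c (adjusted p = 4.14e-19) and 0.52 for miR-378d (adjusted p = 5.26e-18).

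**Figure D3:**
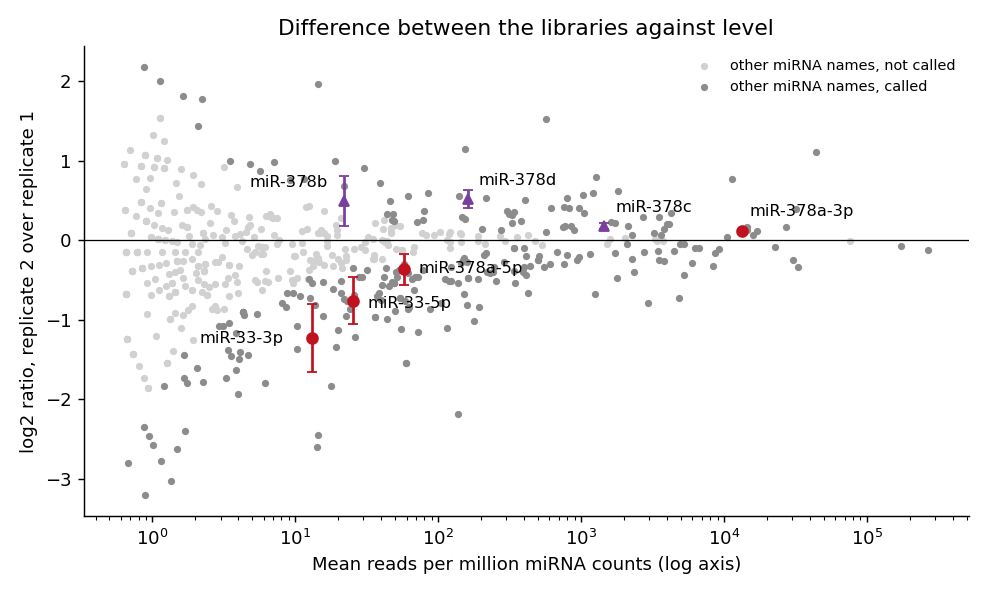
log2 ratio of replicate 2 to replicate 1 against mean reads per 1000000 miRNA counts (log axis) for all names with at least 10 counts summed, called (dark grey) or not called (light grey), with the arms of miR-33 and miR-378a (red circles) and the names miR-378b, miR-378c and miR-378d (purple triangles) and their 95% counting intervals. miR-33-3p lies lowest of the 7 at -1.23, and miR-378a-3p lies just above 0 at 0.12.

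The scaling shifts all these ratios alike. The median log2 ratio of the 588 names was -0.16 with library totals, -0.03 with TMM effective sizes and -0.02 with DESeq2 size factors, and the calls split into 122 higher and 137 lower with TMM and into 124 and 127 with DESeq2. With TMM the log2 ratios were 0.25 for miR-378a-3p, -0.24 for miR-378a-5p, -0.63 for miR-33-5p and -1.10 for miR-33-3p, so each arm kept its direction.

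The difference in miR-33 was also set beside names of like level. Of the 151 tested names with a mean of 10 to 100 RpM, 106 were lower and 45 higher in replicate 2 with library totals, and 83 were called. Their median log2 ratio was -0.26 (SD 0.60) with library totals and -0.13 with TMM. Counting the arm itself, 8 of the 151 had a ratio at or below that of miR-33-3p, 28 at or below that of miR-33-5p and 66 at or below that of miR-378a-5p. Among the 160 hairpins the less abundant arms had a median log2 ratio of -0.37 and the more abundant arms -0.14, and 111 and 104 of them were lower in replicate 2. With TMM these medians were -0.24 and -0.008. The ratio of miR-378a-5p with library totals differed from the median of the less abundant arms by less than its counting SE of 0.10. Both arms of a hairpin were called lower in 34 of the 160 hairpins, miR-33 among them, and both higher in 8. They were called in opposite directions in 16, miR-378a among them. With TMM both arms were called lower in 20 hairpins and in opposite directions in 19.

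The members were then placed among miRNAs reported to act in the same processes. In a list of 20 names tied to cholesterol transport and lipoproteins, 15 had at least 10 counts in each library, and the list held 11.6% of all counts in both. It was led by miR-27b-3p with 76466 RpM ± 124 (SD, n = 2), which has been reported to act on lipid genes, miR-26a-5p, and miR-148a-3p with 9142 RpM ± 512 (SD, n = 2), a regulator of the LDL receptor. Of the list, 12 names lay above miR-33-5p, among them miR-106b-5p with 413 RpM ± 39.2 (SD, n = 2), another miRNA reported to repress Abca1. miR-10b-5p, at 26.1 RpM ± 14.7 (SD, n = 2), was not distinguishable from miR-33-5p. miR-758-3p, miR-302a-3p and miR-122-5p had 0 counts in both libraries. Of the 16 tested, 5 were called higher and 8 lower in replicate 2, with a median log2 ratio of -0.08 against -0.16 for all names tested. With TMM the calls were 7 and 5. The names on either side of that median, miR-148a-3p and miR-27a-3p, had log2 ratios of 0.02 and 0.08 with TMM. The median of all names tested was then -0.03. Over all 588 names tested, 13.8% were called higher and 30.4% lower with library totals, and 122 and 137 names with TMM, and abundant names were called more often.

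In a list of 14 names tied to mitochondria and fuel use, of which 13 were in the table because miR-696 was listed under 2 names, miR-378a-3p was the most abundant. It was followed by miR-340-5p with 6627 RpM ± 326 (SD, n = 2) and miR-23a-3p, a regulator of glutaminase, with 3809 RpM ± 478 (SD, n = 2). miR-103-3p and miR-107-3p, which come from introns of the Pank genes of coenzyme A synthesis, had 3790.5 RpM ± 254 and 568 RpM ± 29.2 (SD, n = 2). The hypoxia-induced miR-210-3p had 747 RpM ± 60.2 (SD, n = 2). miR-378a-5p was the lowest of the 11 names with at least 10 counts in each library. Of these 11, 4 were called higher and 6 lower in replicate 2, with a median log2 ratio of -0.10. With TMM the calls were 5 and 5, and miR-340-5p, whose ratio was that median, had a log2 ratio of 0.03. Over all 588 names the calls were again 13.8% and 30.4% with library totals and 122 and 137 names with TMM, and 41 of the 47 names with a mean of 1000 to 10000 RpM were called, so a high number of calls is not particular to the list.

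**Figure D4:**
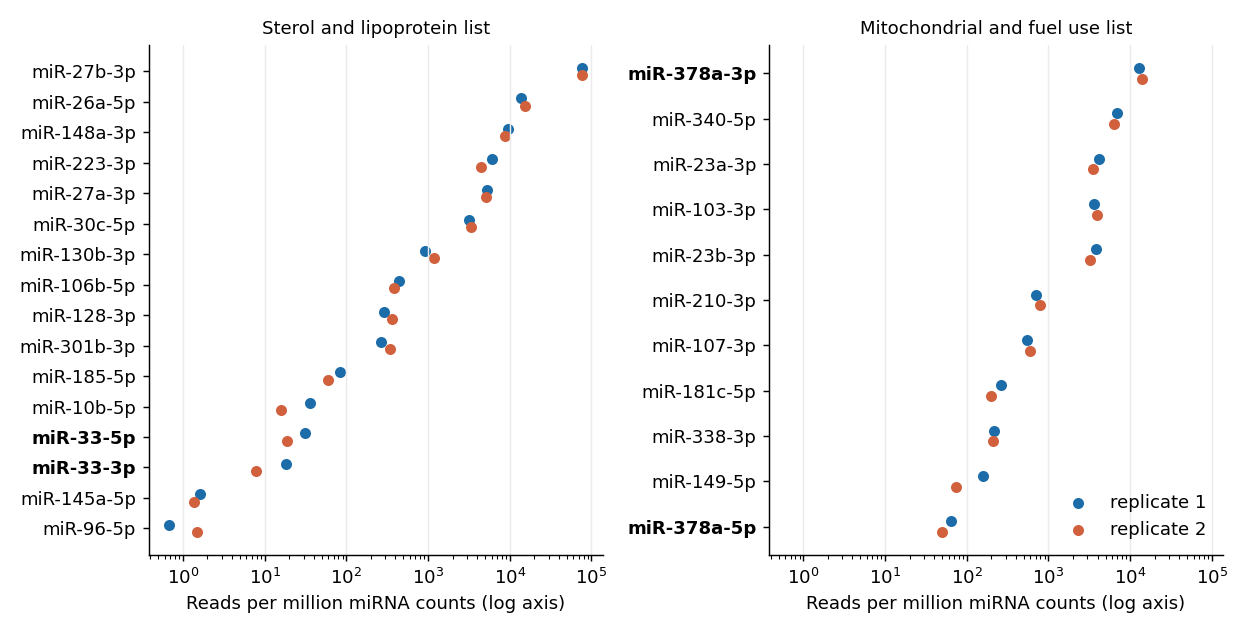
Reads per 1000000 miRNA counts (log axis) in replicate 1 (blue) and replicate 2 (orange) for the names with counts in both libraries from the sterol and lipoprotein list (left) and the mitochondrial and fuel use list (right), ordered by mean, with the arms of miR-33 and miR-378a in bold. miR-378a-3p tops its list, and 12 names of the other list lie above miR-33-5p.

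The cell type was checked with marker miRNAs, since miR-378a is also abundant in muscle and brown fat. miR-223-3p, miR-145a-5p, miR-144-3p and miR-122-5p are in the sterol list as well. All 6 macrophage and myeloid markers had at least 10 counts in each library, among them miR-223-3p with 5269 RpM ± 1109 (SD, n = 2), and the list held 32.9% and 29.5% of all counts, while miR-21a-5p, a member of it that many cell types express, alone held 28.0% and 25.7% of all counts. Of the other members, miR-142a-5p held the most, 3.70% and 2.93% of all counts, while miR-223-3p held 0.605% and 0.448%. Of the 6 markers, 1 was called higher and 5 lower in replicate 2, and with TMM 2 and 4. This stands against 13.8% and 30.4% of all names with library totals and 122 and 137 of the 588 with TMM. The 7 markers of skeletal and heart muscle summed to 1 count in replicate 1 and 7 in replicate 2, with miR-1a-3p and miR-206-3p at 0 in both libraries and miR-133a-3p the most abundant. Both hepatocyte markers, miR-122-5p and miR-122-3p, were at 0. The 3 erythroid markers summed to 11 and 12 counts, with miR-451a the most abundant. miR-486a-5p, which is abundant in erythroid cells and muscle but is in neither list and was chosen after its values were seen, had 3956 and 3683 counts. The nearly equal counts of miR-486b-5p, 3934 and 3672, may come from the same reads, which was not tested, so they are not added to those of miR-486a-5p.

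Markers of other cells were present at low levels, and several were lower in replicate 2, as were both arms of miR-33. The 5 fibroblast and mesenchymal markers had a summed level of 239 and 161 RpM in the order of the replicates, led by miR-143-3p (152 RpM ± 49.4, SD, n = 2). The 3 markers of brown adipocytes summed to 14.3 and 9.76 RpM, led by miR-365-3p, the lymphoid marker miR-150-5p had 27.6 and 10.9 RpM, and the 2 endothelial markers summed to 62.5 and 46.2 RpM, led by miR-126a-5p. None of the markers of these 4 lists was at 0 in both libraries. Called lower in replicate 2 were 2 of the 5 fibroblast markers, 1 of the 2 brown adipocyte markers tested, miR-150-5p and 1 of the 2 endothelial markers, and none of these lists had a marker called higher, with library totals or with TMM. Over all names 30.4% were called lower and 13.8% higher with library totals. Of the 151 names with 10 to 100 RpM, 106 were lower in replicate 2, with a median log2 ratio of -0.26, or -0.13 with TMM. The part of these other cells in the lower level of miR-33 in replicate 2 was not tested.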

How the data were processed

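Small RNA libraries of unstimulated BMDMs, 2 in all, were analysed. After trimming, the authors aligned reads to mouse stem-loops from miRBase with Bowtie 0.12.7, and they deposited raw counts per mature miRNA name, with no normalization. The miRBase release, the mismatches allowed and the rule for reads with several matches are not given in the sources used here. The submitters' processing notes also name DESeq2, with no role given.

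Each count was divided by its library total (7322969 and 8094314), as in the study's methods, and given as RpM or percent, with 95% Wilson intervals. log2 ratios used a pseudocount of 0.5. With a single condition no quasi-likelihood test could be fitted. Fisher's exact tests (scipy 1.17.1) were adjusted by the Benjamini-Hochberg method over all names or hairpins tested, with at least 10 counts summed for the name or for each arm, and called at 0.05. Hairpins were pairs of names with the same root. TMM (edgeR 4.0.16) and DESeq2 1.42.0 gave alternative scalings in R 4.3.3. Both tests were tried on simulated counts that held counting error and set changes only. Further differences between libraries were not simulated, so that trial does not bear on the calls made here. The files use no genome coordinates. Positions are from GENCODE M21 and RefSeq, both on GRCm38.

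The members, lists and tests were chosen with earlier results of these data known. Named miRNAs were the 4 arms, all miR-378 names, the 2 nearest in log2 RpM to each arm, its direct neighbours in mean level, miR-21a-5p and the listed miRNAs. miR-148b-3p, named for its sequence, miR-486a-5p and miR-486b-5p fall outside this rule and were chosen after their values were seen. miR-696 was listed under 2 names, of which the table holds the one without an arm.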

Additional observations from a re-analysis of the deposited data

How the results depend on the processing

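The shares of all 4 arms moved by less than 1 SD with pooled reads, TMM or DESeq2 scaling, a minimum of 10 counts in every library, and equal counts counted once. The DESeq2 size factors were 1 for both libraries, so that scaling gave the same shares as pooled reads. A total without miR-21a-5p raised the share of miR-378a-3p from 1.34% to 1.83%, that of miR-33-5p from 0.00252% to 0.00345% and that of miR-378a-5p to 0.00792%, because the total shrinks. Adding miR-378b, miR-378c and miR-378d gave 1.50% for miR-378a-3p, with each read taken as counted under 1 name only. With either library alone the share was 1.28% to 1.39% for miR-378a-3p, 0.00187% to 0.00317% for miR-33-5p and 0.000778% (without replicate 1) to 0.00183% for miR-33-3p, whose mean was 0.00130%, the 3p share of miR-378a was 99.5% to 99.6%, and the 5p share of miR-33 was 63.4% to 70.6%. With 2 libraries, leaving 1 out cannot move a mean by 1 SD. The log2 ratios of the 4 arms and of miR-378b, miR-378c and miR-378d kept their direction and call under both scalings and a total without miR-21a-5p, and their direction with a pseudocount of 5, which the test does not use, except that miR-378a-5p lost its call with DESeq2 size factors (-0.22). The names called between the libraries numbered 243 to 259 under the alternatives, against 260, and the hairpins called in arm use 48 to 52, against 55, and in each of these miR-378a was called and miR-33 was not. The arm use setting without names of equal counts (52) and the ratio settings for miR-378b, miR-378c and miR-378d were chosen after seeing the data. No paired analysis was possible because a single condition was sequenced. Depth limits miR-33-3p most, whose 63 counts in replicate 2 give an interval of 6.08 to 9.96 RpM.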
